A study of Mus musculus with 7 samples.

Results

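Chemokines and their receptors were measured in the epidermis of mice that lose the Abca12 gene, which encodes a lipid transporter of the skin barrier, in adult life. The members were all genes of the deposited table whose symbol begins with Ccl, Cxcl, Xcl, Cx3c, Ccr and a digit, Cxcr, Xcr or Ackr. There were 29 of them among 7091 listed genes, 16 ligands and 13 receptors. The GENCODE M21 annotation holds 61 such genes besides unprocessed pseudogenes, 38 ligands and 23 receptors. The table lists only genes for which the authors' adjusted p-value for KA against control was under 0.05 (largest 0.04995). Each member had therefore been selected on the same comparison that is described here, and nothing can be said from the table about the other 32 genes of the family.

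The mutants, called KA, are labelled K14-CreERT;ABCA12-cKO: they carry the conditional Abca12 allele and CreERT, a recombinase that works once tamoxifen is given, under the keratin 14 promoter, which is active in basal keratinocytes. Controls are labelled ABCA12-c/c and have the conditional allele without CreERT. Both groups received tamoxifen at 8 weeks of age (daily for 3 days, 1 mg for every 40 g of weight), and epidermis was separated from telogen skin 2 weeks later. KA 1 and KA 2 came from males and KA 3 and KA 4 from females, while control 2 was male and controls 1 and 3 were female, each library from a mouse with its own animal number. The deletion and the presence of an active recombinase cannot be told apart in this design, and the targeted gene was not analysed here.

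Chemokines are small secreted proteins that guide leukocytes. They are held on cell surfaces and matrix as gradients and bind G protein-coupled receptors on the cells they attract. Their families are named after the spacing of the first cysteines (CC, CXC, XC and CX3C). Atypical receptors, the Ackr genes, bind chemokines without the usual G protein signal and remove them. In skin, keratinocytes make some chemokines at rest, such as Cxcl14 and Ccl27a, and others only when cytokines or damage act on them, such as Cxcl1 and Ccl20.

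Of the 16 ligands, 9 rose and 7 fell in KA, and of the 13 receptors 9 rose, 3 fell and 1, Ackr1, had too few reads to be tested (edgeR's quasi-likelihood test over 6761 genes, Benjamini-Hochberg adjusted p under 0.05). The median log2 fold change was 1.57 over the 16 ligands and 2.22 over the 12 tested receptors, against 0.22 over all genes tested. The ligand median stayed at 1.57 when the 3 ligands with at most 3 counts in every control were set to their value against that floor. It could not move, because these 3 lie above the median either way. All 28 tested members passed, where 91.5% of all tested genes did (44% higher and 47.5% lower), so passing says little about the family. The KA libraries lay wholly above or wholly below the controls in 27 of the 29 members, against 93.5% of all tested genes. Of the 29 members, 17 lay wholly above and 10 wholly below the controls. Of all 6761 tested genes, 49% lay wholly above and 44.5% wholly below. The exceptions were Ccl17 and Cxcl12.

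**Figure D1:**
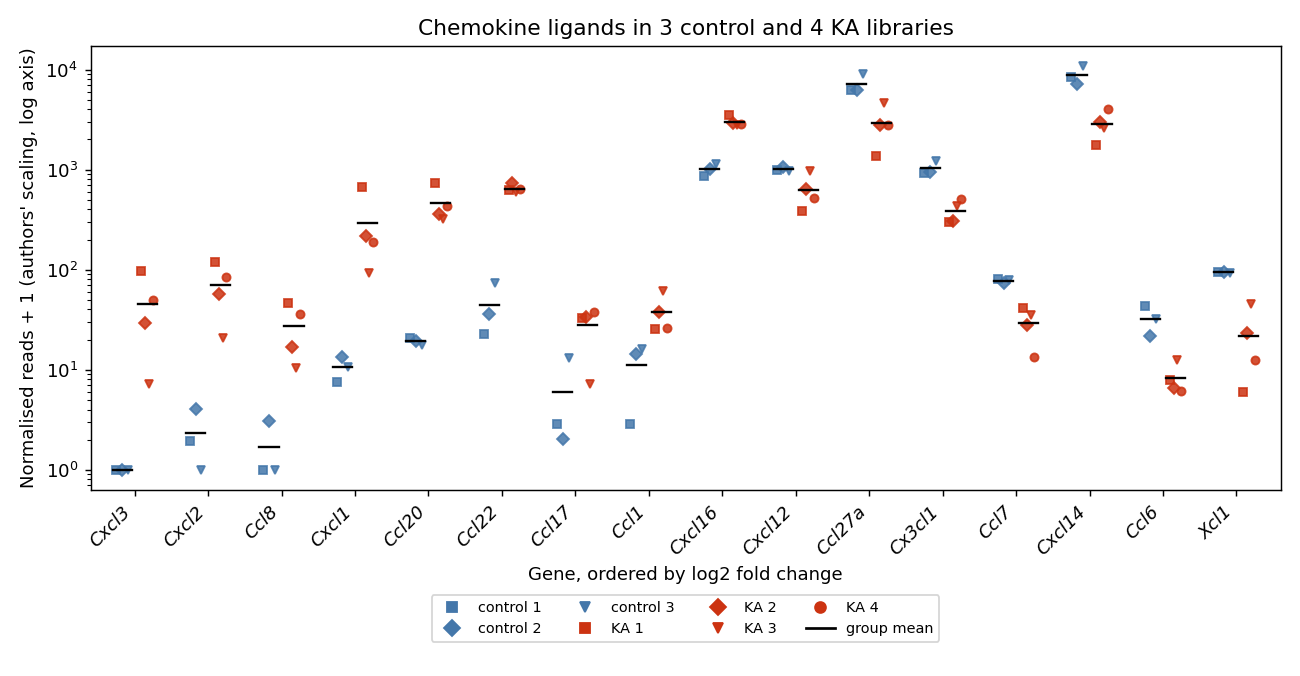
Normalised reads plus 1 of the 16 chemokine ligands on a log axis, with 1 symbol per library (3 controls in blue, 4 KA in red) and a black bar at each group mean. Cxcl3 was at 0 in all controls, Cxcl14 and Ccl27a were the highest ligands in controls and were lower in all 4 KA libraries, and the groups overlap in Ccl17 and Cxcl12.

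Among the ligands, the neutrophil attractants Cxcl1, Cxcl2 and Cxcl3, which act through the receptor Cxcr2, went from nearly silent to clearly present. Cxcl1 (ENSMUSG00000029380, chromosome 5, 90891241 to 90893115) stood at 6.63, 12.4 and 9.62 normalised reads in controls 1, 2 and 3 and at 673, 214, 91.9 and 190.0 in KA 1, 2, 3 and 4. Every KA library was above every control, and KA 1 stood far above the other KA libraries. The rise, from a mean of 9.54 ± 2.87 (SD, n = 3) to 292 ± 259 (SD, n = 4), gave a log2 fold change of 4.77 (SE 0.73; edgeR adjusted p = 0.000449), and 3.99 without KA 1. Cxcl2 (ENSMUSG00000058427, chromosome 5, 90903871 to 90905938) had 1, 3 and 0 counts in controls 1, 2 and 3 and 120, 50, 19 and 81 counts in KA 1 to KA 4. Against the floor of 3 counts per library its KA mean was 25.1-fold higher, and the ratio of summed counts was 57.9 (95% counting interval 22.3 to 214). All KA libraries held several times more reads of Cxcl2 than any control. Its fitted log2 fold change of 5.55 (edgeR adjusted p = 0.000351) became 6.83 without control 2 and 4.95 without control 3. Cxcl3 (ENSMUSG00000029379, chromosome 5, 90786103 to 90789600) had no read in any control and 97, 25, 6 and 47 counts in KA 1 to KA 4, or 96, 28.2, 6.27 and 48.8 normalised reads. It was at least 16.1-fold higher in KA against the floor of 3 counts per library (edgeR adjusted p = 0.00216), and at least 9.98-fold higher without KA 1. These intervals and floors describe counting error and nothing else, because sequenced reads can be copies of 1 molecule. In all 3 genes KA 1 was the highest and KA 3 the lowest KA library.

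Cxcl3, Cxcl1 and Cxcl2 lie in that order on chromosome 5 of GRCm38, with gaps of 102 and 10.8 kb; Cxcl15, between Cxcl3 and Cxcl1, is not listed. The 150 bases directly before their RefSeq starts (build GRCm38.p6, plus strand, 5′ to 3′) are shown with those of Ccl20, because these 4 ligands rose together and each stretch holds a match to the NF-kappaB consensus, given in capitals. The stretches are chr5:90891095-90891244 for Cxcl1, chr5:90903749-90903898 for Cxcl2, chr5:90785951-90786100 for Cxcl3 and chr1:83116616-83116765 for Ccl20.
Cxcl1: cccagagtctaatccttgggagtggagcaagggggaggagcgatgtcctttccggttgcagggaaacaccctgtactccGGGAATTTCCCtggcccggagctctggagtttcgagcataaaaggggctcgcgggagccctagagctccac
Cxcl2: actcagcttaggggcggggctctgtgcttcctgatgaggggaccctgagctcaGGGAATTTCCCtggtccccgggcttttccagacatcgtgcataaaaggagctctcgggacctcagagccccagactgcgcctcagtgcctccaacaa
Cxcl3: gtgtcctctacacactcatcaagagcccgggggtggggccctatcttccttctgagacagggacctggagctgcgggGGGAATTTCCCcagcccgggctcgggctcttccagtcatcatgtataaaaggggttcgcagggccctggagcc
Ccl20: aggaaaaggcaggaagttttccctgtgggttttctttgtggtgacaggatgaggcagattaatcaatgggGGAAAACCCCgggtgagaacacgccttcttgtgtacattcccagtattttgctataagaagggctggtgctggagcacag
The same run, GGGAATTTCCC, stands in all 3 Cxcl promoters, where the match begins 71 bases (Cxcl1), 97 bases (Cxcl2) and 73 bases (Cxcl3) before the start. The 3 genes are close relatives, so their promoters are not independent. That run was searched after it had been seen, and 14 of 32851 RefSeq promoters of 300 bases (250 before and 50 after the start) hold it on either strand, a share of 0.0426%. The match of Ccl20, GGAAAACCCC as read on the strand shown, begins 80 bases before its start.

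RefSeq promoters were found for 25 of the 29 members; Ccl7, Ccr7 and Cxcl16 were among those with no entry. The NF-kappaB consensus, searched on both strands, matched 7 of the 25 genes, against 4.51% of all promoters: 5 of the 15 that were higher in KA (Cxcl1, Cxcl2, Cxcl3, Ccl20 and Ccr6) and 2 of the 10 that were lower (Ackr2 and Ccl27a). An AP-1 motif (TGANTCA) matched 2 members, Ccl27a and Ccr4, against 7.81% of promoters. A STAT motif (TTCNNNGAA) matched Ccl17, Ccr6 and Cxcl14, against 8.3%, and a C/EBP motif (TTGCNNAA) matched Ccl27a alone among the members, against 10.8%. The members were counted as genes and the shares as promoters, and some genes have several promoters. A match describes letters in the window and says nothing about binding in these mice.

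Cxcr2 (ENSMUSG00000026180, chromosome 1, 74153989 to 74161246), the receptor for Cxcl1, Cxcl2 and Cxcl3 on neutrophils, had the highest fitted fold change of the tested receptors. It had 0, 1 and 5 counts in controls 1, 2 and 3 and 390, 195, 211 and 278 counts in KA 1 to KA 4. The groups were far apart, and the KA libraries lay within 1.76-fold of each other, from 386, 219.7, 220.4 and 289 normalised reads in KA 1 to KA 4. The log2 fold change was 7.04 (SE 0.51; edgeR adjusted p = 6.72e-06), and 8.71 without control 3, which held most of the control reads. Of 12 neutrophil markers, only Padi4, a granulocyte enzyme that converts arginine in histones, is listed. Padi4 had 3.79, 6.19 and 8.82 normalised reads in controls and 34.6, 40.6, 138 and 29.1 in KA 1 to KA 4. Its highest KA library was KA 3, the library that was lowest for Cxcl1, Cxcl2 and Cxcl3. Ly6g, Csf3r, Mpo, Elane, Ngp and the other 6 neutrophil markers are not among the listed genes. The part of neutrophils in the rise of Cxcr2 was not tested.

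Ccl20 (ENSMUSG00000026166, chromosome 1, 83116766 to 83119167), which attracts Th17 cells, gamma delta T cells and immature dendritic cells, rose in all KA libraries. It stood at 19.9, 18.6 and 16.8 normalised reads in controls and at 734, 356, 316 and 428 in KA 1 to KA 4. The groups did not overlap, and the lowest KA library was several times above the highest control. The mean went from 18.4 ± 1.52 (SD, n = 3) to 459 ± 189 (SD, n = 4), 24.9-fold higher (log2 fold change 4.49, SE 0.34, edgeR adjusted p = 7.88e-06). Ccr6, its receptor, had 4, 0 and 3 counts in controls and 34, 39, 17 and 28 in KA 1 to KA 4. It rose from 2.06 ± 1.92 (SD, n = 3) to 31.1 ± 10.9 (SD, n = 4) normalised reads (log2 fold change 3.66, SE 0.63, edgeR adjusted p = 0.00059), with KA 3 lowest again. Without control 1 the log2 fold change of Ccr6 was 4.34. Ccr6 counts were low in all controls, which limits the precision of that fold.

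Ligands of the receptors Ccr4 and Ccr8, which mark Th2, regulatory and skin-homing T cells, rose, while Ccr4 itself fell and Ccr8 rose. Ccl22, a dendritic cell product that binds Ccr4, stood at 21.8, 35.1 and 72.2 normalised reads in controls and 617, 726, 591 and 633 in KA 1 to KA 4. The KA libraries were within 1.23-fold of each other, the narrowest range of the members with reads in every KA library, and the controls were spread more widely, with control 3 highest. Its mean rose from 43 ± 26.1 (SD, n = 3) to 642 ± 58.5 (SD, n = 4) (log2 fold change 3.75, SE 0.33, edgeR adjusted p = 2.01e-05), and the log2 fold change was 4.40 without control 3. Ccl17, the other Ccr4 ligand, had 1.89, 1.03 and 12 normalised reads in controls and 31.7, 32.7, 6.27 and 36.3 in KA 1 to KA 4. KA 3 lay below control 3, so the groups overlapped. The rise of Ccl17 (log2 fold change 2.18, SE 0.76, edgeR adjusted p = 0.0193) did not pass without control 1 (adjusted p = 0.068) or without control 2 (adjusted p = 0.0603), and its log2 fold change was 3.96 without control 3. It also did not pass in a fit with sample numbers as a block (adjusted p = 0.0889) or when adjusted over the 19407 genes of the authors' adjustment (adjusted p = 0.0553).

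Ccr4, the receptor of Ccl22 and Ccl17 on skin-homing T cells, went the opposite way. It stood at 608, 583 and 440.3 normalised reads in controls and 228, 127, 260.1 and 354 in KA 1 to KA 4, and all KA libraries were below all controls. It fell from 544 ± 90.5 (SD, n = 3) to 242 ± 93.5 (SD, n = 4) (log2 fold change -1.30, SE 0.29, edgeR adjusted p = 0.00259), with KA 2 lowest. In these bulk samples, fewer cells of a type and less RNA per cell cannot be told apart. Trdc, the constant region of the delta T cell receptor chain that the resident epidermal T cells of mice carry, fell as well, from 444 ± 58.5 (SD, n = 3) to 138 ± 15.8 (SD, n = 4) (log2 fold change -1.82, SE 0.16, edgeR adjusted p = 1.96e-05). Of the 16 T cell markers 9 are listed, and 4 of these rose and 4 fell, where 44% of all tested genes rose and 47.5% fell. Cd5 was among those that rose, from 44.3 ± 8.92 (SD, n = 3) to 160 ± 12.3 (SD, n = 4) (log2 fold change 1.71, SE 0.23, edgeR adjusted p = 0.000136). The 9 listed markers had a summed level of 1447 to 1898 normalised reads in controls and 1129 to 1277 in KA. Their part in the fall of Ccr4 was not tested.

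Ccr8, found on Th2 and regulatory T cells, stood at 8.52, 11.3 and 11.2 normalised reads in controls and 56.4, 38.3, 34.5 and 51.9 in KA 1 to KA 4. All KA libraries were higher, with KA 1 highest (log2 fold change 1.98, SE 0.34, edgeR adjusted p = 0.000591). Its ligands rose from low levels. Ccl1 had 1.89, 13.4 and 15.2 normalised reads in controls and 24.7, 37.2, 60.6 and 24.9 in KA, with KA 3 highest (log2 fold change 1.71, SE 0.58, edgeR adjusted p = 0.0165). Ccl8, which binds Ccr8 in mice, had 0, 2 and 0 counts in controls and 46, 14, 9 and 34 in KA 1 to KA 4. Its KA mean was 9.53-fold above the floor of 3 counts per library, and the ratio of summed counts was 44.1 (95% counting interval 11.9 to 369). The fitted log2 fold change of Ccl8, 5.05 (edgeR adjusted p = 0.00102), moved to 7.71 without control 2, the only control with a read of it. Foxp3, the factor that defines regulatory T cells, had 0.947, 5.15 and 4.81 normalised reads in controls and 50.4, 51.8, 50.1 and 69.6 in KA 1 to KA 4 (log2 fold change 3.75, SE 0.46, edgeR adjusted p = 9.55e-05). Its part in the rise of Ccr8 was not tested.

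Cxcl16 (ENSMUSG00000018920, chromosome 11, 70453983 to 70459984), a ligand made both as a membrane protein and in soluble form, and Cxcr6, its receptor on T cells and NKT cells, both rose. Cxcl16 stood at 869, 1019 and 1145 normalised reads in controls and 3525, 2915, 2778 and 2830.1 in KA 1 to KA 4. It was the most abundant of the ligands that rose, with means of 1011 ± 138 (SD, n = 3) and 3012 ± 347 (SD, n = 4) (log2 fold change 1.44, SE 0.13, edgeR adjusted p = 1.79e-05). Zmynd15 on the other strand shares 18.3% of its exon bases, and the strand setting of the counting is not given in the sources used here. Cxcr6 stood at 64.4, 73.2 and 88.2 normalised reads in controls and 406, 226, 128 and 165 in KA, all above the controls, with KA 1 highest. The log2 fold change of Cxcr6 was 1.47 (SE 0.35, edgeR adjusted p = 0.00339).

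**Figure D2:**
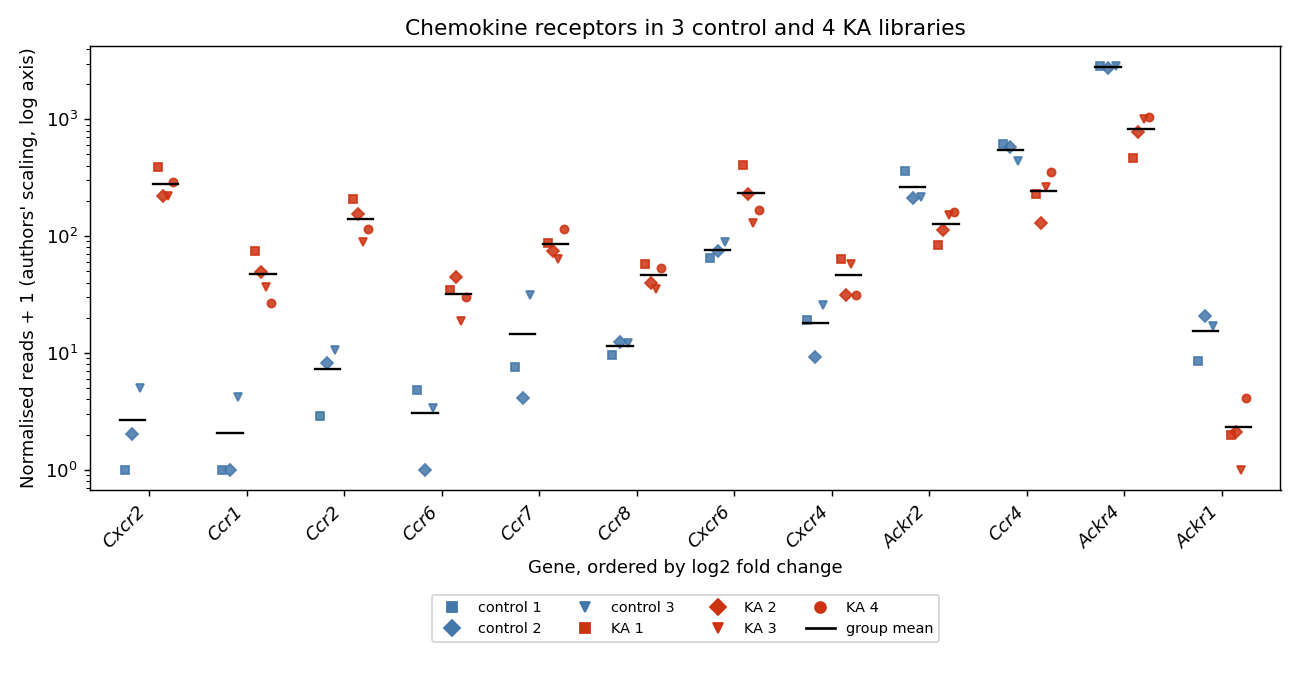
Normalised reads plus 1 of 12 chemokine receptors on a log axis, drawn as for the ligands. The 4 KA libraries lie above all controls in 8 receptors, from Cxcr2 to Cxcr4, and below all controls in Ackr2, Ccr4, Ackr4 and Ackr1.

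Receptors of monocytes and macrophages rose, while the listed ligands for them fell. Ccr2, the receptor by which monocytes leave the blood, had 1.89, 7.22 and 9.62 normalised reads in controls and 205, 154, 87.7 and 113 in KA 1 to KA 4. It was 22.4-fold higher by means, and every KA library was several times above the highest control (log2 fold change 4.30, SE 0.47, edgeR adjusted p = 5.3e-05). Ccr1, found on monocytes and neutrophils, had 0, 0 and 4 counts in controls and 75, 43, 34 and 25 in KA 1 to KA 4 (log2 fold change 4.99, SE 0.76, edgeR adjusted p = 0.000292). Only control 3 held reads of Ccr1, and without it the log2 fold change was 8.45. Cxcr6, Ccr1 and Ccr2 lie on chromosome 9 between 123806475 and 124113557, and all 3 rose; Xcr1, Ccr1l1 and Ccr3, which lie among them, are not listed and have no value here.

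Ccl7, a ligand of Ccr2 and Ccr1, stood at 79.5, 72.2 and 78.6 normalised reads in controls and 40.6, 27, 34.5 and 12.5 in KA 1 to KA 4. Controls were nearly equal, and all KA libraries were lower, KA 4 most (log2 fold change -1.56, SE 0.35, edgeR adjusted p = 0.00225). Ccl6, a ligand of Ccr1, had 42.6, 20.6 and 31.3 normalised reads in controls and 6.92, 5.63, 11.5 and 5.19 in KA, again with no overlap (log2 fold change -2.22, SE 0.42, edgeR adjusted p = 0.00102). Of 14 monocyte and macrophage markers 10 are listed, and 7 of the 9 tested rose and 2 fell, where 44% of all tested genes rose and 47.5% fell. The summed level of the listed markers was 1986 to 2503 normalised reads in controls and 4898 to 6713 in KA. C1qa, a complement subunit of macrophages, went from 64.1 ± 24.6 (SD, n = 3) to 304 ± 76.5 (SD, n = 4), while the macrophage genes Adgre1 and Cd68 fell, to 61.1 ± 5.84 (SD, n = 4) and 73.4 ± 6.69 (SD, n = 4) from 164 ± 58.9 (SD, n = 3) and 115 ± 15.8 (SD, n = 3). The part of these cells in the levels of Ccr1, Ccr2, Ccl6 and Ccl7 was not tested.

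Ccr7, which mature dendritic cells use to travel to lymph nodes, rose. It had 6.63, 3.09 and 30.5 normalised reads in controls, where control 3 stood above the others, and 87, 73.2, 62.7 and 114 in KA 1 to KA 4. The KA libraries were all higher than control 3 (log2 fold change 2.46, SE 0.58, edgeR adjusted p = 0.00316), and without control 3 the log2 fold change was 3.96. Fscn1, an actin-bundling protein high in mature dendritic cells, went from 52.1, 47.4 and 98.6 normalised reads in controls to 1543, 931, 865 and 1087 in KA (log2 fold change 3.91, SE 0.29, edgeR adjusted p = 9.21e-06), again with control 3 the highest control. All 11 listed genes of the 14 Langerhans and dendritic cell markers rose, where 44% of all tested genes did. Their summed level was 25968 to 35392 in controls and 60759 to 95191 in KA. Cd74, H2-Ab1, H2-Eb1 and H2-Aa made up most of this sum in both groups, so it is no measure of cell number. Cd74 had means of 12237 in controls and 28021 in KA, Mfge8 909 and 15970, and Cd207 only 699 and 1369. The part of the listed markers in the rise of Ccr7 and Ccl22 was not tested.

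Xcl1, which NK cells and T cells release to attract cross-presenting dendritic cells, fell. It stood at 93.7, 94.8 and 91.4 normalised reads in controls, the smallest relative spread among members with control reads, and at 4.95, 22.5, 43.9 and 11.4 in KA 1 to KA 4. No KA library reached a control, but the KA values were 8.87-fold apart, with KA 1 lowest and KA 3 highest (log2 fold change -2.30, SE 0.53, edgeR adjusted p = 0.00275). Without KA 3 the log2 fold change was -3.00. The noncoding gene Gm20743 on the other strand shares 18.7% of the exon bases of Xcl1. Klrk1 and Prf1, an activating receptor and the pore-forming protein of cytotoxic lymphocytes, fell too, from 67.4 ± 1.89 (SD, n = 3) to 29.3 ± 8.29 (SD, n = 4) and from 234 ± 24.7 (SD, n = 3) to 66.1 ± 19.2 (SD, n = 4). Gzmb, the other listed NK marker, went the opposite way. It rose from 9.41 ± 5.5 (SD, n = 3) to 32.5 ± 3.58 (SD, n = 4) normalised reads (log2 fold change 1.66, SE 0.42, edgeR adjusted p = 0.0042). Of 8 NK markers 3 are listed, 1 higher and 2 lower, where 44% of all tested genes rose and 47.5% fell. Their summed level was 292 to 334 in controls and 98 to 163 in KA. The part of these markers in the fall of Xcl1 was not tested.

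Of the 16 listed ligands, Cxcl14 and Ccl27a were the most abundant in controls, and both fell. Cxcl14 (ENSMUSG00000021508, chromosome 13, 56288643 to 56296551), which epithelia make at rest, stood at 8504, 7140.1 and 10812 normalised reads in controls and 1752, 3004, 2603 and 4049 in KA 1 to KA 4. The highest KA library was well below the lowest control. Its mean fell from 8819 ± 1856 (SD, n = 3) to 2852 ± 954 (SD, n = 4), 3.09-fold lower (log2 fold change -1.75, SE 0.26, edgeR adjusted p = 0.000299). Ccl27a (ENSMUSG00000073888, chromosome 4, 41769467 to 41774247), a keratinocyte product that attracts skin-homing T cells, stood at 6299.6, 6205 and 9053 in controls and 1368, 2814, 4663 and 2771 in KA. It was lower in every KA library, KA 1 lowest and KA 3 highest, with a mean of 2904 ± 1352 (SD, n = 4) against 7186 ± 1618 (SD, n = 3) (log2 fold change -1.42, SE 0.36, edgeR adjusted p = 0.00517). The mouse genome holds related copies of Ccl27a, so the division of its reads is uncertain.

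Cx3cl1 (fractalkine), a membrane-bound ligand that can be shed, stood at 919, 952 and 1210.2 normalised reads in controls and 297, 306, 433 and 507 in KA. All KA libraries were lower (log2 fold change -1.54, SE 0.21, edgeR adjusted p = 0.000162). It lies between Ccl22 and Ccl17 on chromosome 8, with gaps of 20.3 and 28 kb, and these neighbours on either side rose while it fell. On chromosome 11, Ccl7 fell, while Ccl8, 67.7 kb away, and Ccl1, a further 59.9 kb on, rose; Ccl11 and Ccl12, which lie between Ccl7 and Ccl8, are not listed. Cxcl12, which retains many leukocytes and progenitors in tissues, changed least among the ligands. It stood at 995, 1058 and 977 in controls and 383, 632, 978 and 521 in KA 1 to KA 4. KA 3 was level with the controls, so the groups overlapped, although the fall passed (log2 fold change -0.81, SE 0.27, edgeR adjusted p = 0.017). Its receptor Cxcr4 rose from low levels, 18, 8.25 and 24.9 in controls and 63.3, 30.4, 56.4 and 30.1 in KA (log2 fold change 1.24, SE 0.44, edgeR adjusted p = 0.0197). That rise did not pass without control 2 (adjusted p = 0.0743) or when adjusted over 19407 genes (adjusted p = 0.0566).

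Compared per kilobase of gene model, Cxcl14 and Ccl27a were the highest listed ligands in both groups. Cxcl14 stood at 4827 ± 1016 (SD, n = 3) normalised reads per kb in controls and 1561 ± 522 (SD, n = 4) in KA, and Ccl27a at 3023 ± 681 (SD, n = 3) and 1222 ± 569 (SD, n = 4). In KA, the values of these 2 ligands overlapped between libraries. Cxcl16 came next in both groups, with 335 ± 45.7 (SD, n = 3) per kb in controls and 997 ± 115 (SD, n = 4) in KA. Ccl20 was in place 10 of the 16 in controls, at 13 ± 1.07 (SD, n = 3) per kb, and in place 4 in KA, at 323 ± 133 (SD, n = 4), where it did not differ from Ccl22, at 276 ± 25.2 (SD, n = 4), beyond the spread. Ccl6 was last in KA, at 4.07 ± 1.61 (SD, n = 4) per kb.

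Summed over the 16 listed ligands, the level was 8914 ± 1759 (SD, n = 3) normalised reads per kb in controls and 4955 ± 515 (SD, n = 4) in KA. The 9 ligands that rose made up 3.86% to 5.09% of this sum in the controls and 28.8% to 59.7% in KA. Cxcl14 and Ccl27a together made up 86.2% to 89.2% in controls and 35.9% to 64.3% in KA, with KA 1 at the low end. These are descriptions of listed genes, which had been selected for a difference, and ligands outside the table are not in the sums.

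**Figure D3:**
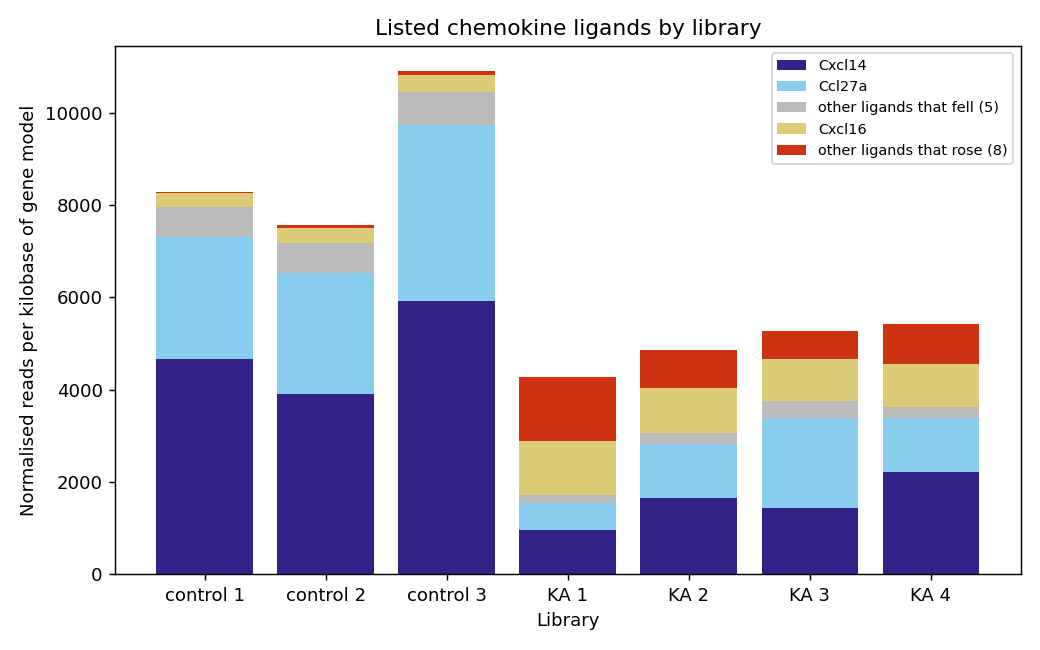
Normalised reads per kilobase of gene model for the 16 listed ligands, stacked by library (3 controls, 4 KA). Cxcl14 and Ccl27a fill most of each control bar, the bars of KA are shorter (4274 to 5431 against 7558 to 10901), and the parts for Cxcl16 and the other ligands that rose are larger in KA.

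All 3 listed atypical receptors were lower in KA. Ackr4 (ENSMUSG00000079355, chromosome 9, 104084157 to 104126933), which removes ligands of Ccr7 and is made by keratinocytes, was the highest listed receptor per kilobase in both groups, at 522 ± 10 (SD, n = 3) in controls and 152 ± 48.8 (SD, n = 4) in KA, where Cxcr6 at 119.8 ± 63.7 (SD, n = 4) was within the spread of it. It stood at 2832, 2748 and 2849 normalised reads in controls, which were nearly equal, and at 469, 771, 1005 and 1037 in KA 1 to KA 4. Every KA library held less than any control, 3.43-fold less by means (log2 fold change -1.90, SE 0.25, edgeR adjusted p = 0.000152). Acad11 on the other strand shares 8.9% of its exon bases. Ackr2, which removes inflammatory CC ligands, stood at 361, 212 and 214 in controls and 83.1, 112, 150.4 and 159.9 in KA, lower in all KA libraries (log2 fold change -1.19, SE 0.29, edgeR adjusted p = 0.00366). Ackr1, which binds chemokines on red cells and venules, had 8, 19 and 20 counts in controls and 1, 1, 0 and 3 in KA, too few for the test. Its summed counts were 11.0-fold lower in KA (95% counting interval 4.38 to 35.3), and in the authors' deposited table its log2 fold change was -3.46 (adjusted p = 0.00214). Cadm3 shares 25.7% of the exon bases of Ackr1 on the same strand and fell too (log2 fold change -2.33), so the reads of Ackr1 are uncertain. Ccrl2, a related receptor outside the name rule that binds without signalling, fell from 77.5 ± 23.1 (SD, n = 3) to 23.9 ± 6.32 (SD, n = 4) normalised reads (log2 fold change -1.82, SE 0.33, edgeR adjusted p = 0.000709).

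**Figure D4:**
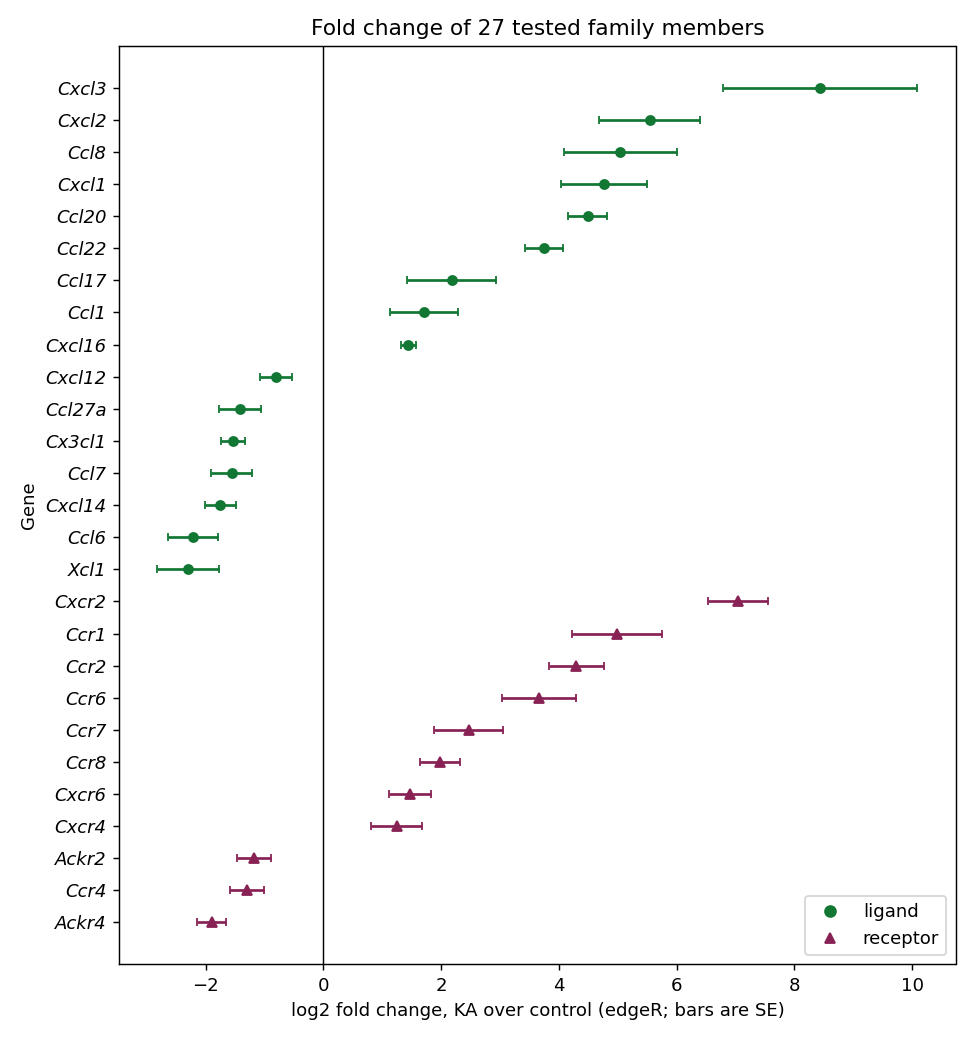
Fold change on the log2 scale with its SE (bars) for 27 tested members, ligands as circles and receptors as triangles. Receptors run from 7.04 for Cxcr2 to -1.90 for Ackr4, and ligands from 8.44 for Cxcl3, whose size depends on the controls being at 0, to -2.30 for Xcl1.

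Known ligand and receptor pairs fell into distinct patterns. There were 13 pairs with both genes listed, formed by 12 ligands and 8 receptors, so several share a gene. In 7 pairs both rose: Cxcl1, Cxcl2 and Cxcl3 with Cxcr2, Ccl20 with Ccr6, Cxcl16 with Cxcr6, and Ccl1 and Ccl8 with Ccr8. In 2 pairs the ligand rose and the receptor fell, Ccl22 and Ccl17 with Ccr4. In 4 pairs the ligand fell and the receptor rose, Cxcl12 with Cxcr4, Ccl7 with Ccr2 and with Ccr1, and Ccl6 with Ccr1. In 0 pairs did both fall, a count that the choice of pairs allowed only through Ccr4. The atypical receptors, all lower, were left out of the pairs, and no other listed receptor but Ccr4 fell. For Ccl27a, Cx3cl1 and Xcl1, which fell, the receptors Ccr10, Cx3cr1 and Xcr1 are not among the listed genes.

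The KA libraries differed among themselves, and KA 1 and KA 3 stood at opposite ends for many of the members that were higher. KA 1 was the library farthest from the controls in 13 of the 18 members that were higher and in 7 of the 11 that were lower. KA 3 was nearest to the controls in 14 of the 18 higher members, 8 of 9 ligands and 6 of 9 receptors. In the 11 lower members, KA 4 was nearest to the controls in 6, all 4 receptors among them, and KA 3 in 4, all of them ligands. The range between KA libraries was widest for Cxcl3, 15.3-fold, then Xcl1, 8.87-fold, and Cxcl1, 7.32-fold, and narrow for Cxcl16, 1.27-fold. Il17f, a cytokine that drives Cxcl1 and Ccl20 in keratinocytes, had 0, 0 and 2 counts in controls and 324, 48, 16 and 41 in KA 1 to KA 4, and Il17a had 0, 0 and 0 and 165, 14, 6 and 19; these were chosen after their values were seen. In both, KA 1 was highest and KA 3 lowest, as for Cxcl1, Cxcl2 and Cxcl3, and Il22 and Il1b had the same highest and lowest library. The part of these cytokines in the levels of the chemokines was not tested. The ranks of the members were taken on normalised reads, and the order of Il17f and Il17a is the same on that scale.

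**Figure D5:**
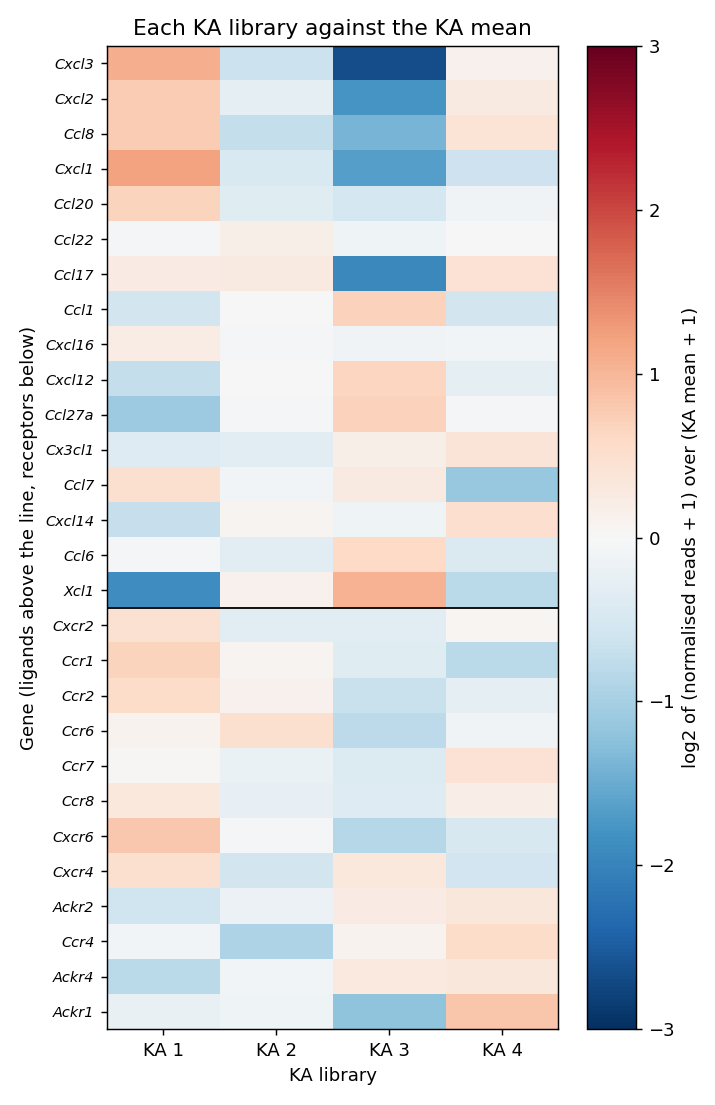
Each KA library against the mean of the 4 KA libraries for 28 members, as log2 of normalised reads plus 1 over the KA mean plus 1 (red above, blue below the mean). The KA 1 column is red in most of the ligands and receptors that rose and KA 3 is blue, while for Xcl1 and Ccl27a the colours are the other way round.

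Animal numbers form a lower run (controls 1 and 2, KA 1 and KA 2) and an upper run (control 3, KA 3 and KA 4), and the labels do not say that these are batches. Among KA, run and sex coincide and cannot be told apart. All 29 members had the same direction in both runs and both sexes when group means were compared. For the 27 members whose groups did not overlap over all libraries, this and their separation within each run and sex were fixed in advance. Only Ccl17 and Cxcl12 could have differed. In the lower run and in males every KA library lay beyond the controls in 29 of 29 members. In the upper run and in females this held for 27, the exceptions being Ccl17 and Cxcl12. The upper run and the males have 1 control each, and the share of all genes was not computed for these counts. Over all libraries, 93.5% of all tested genes did not overlap, so these counts say little about the family. The lower run tested alone (2 controls, 2 KA) passed 28 of 28 members, against 5879 of the 6766 listed genes tested in it. The upper run has 1 control and gives no test. Among females alone (2 controls, 2 KA), 23 of 26 tested members passed, and Ccl17, Cxcl12 and Cxcr4 did not (adjusted p = 0.153, 0.123 and 0.11). Of all listed genes tested in females, 4174 of 6747 passed. The fitted fold moved by over 1.5 times in 10 members in the lower run alone and in 6 among females alone; the farthest was Ccr1, 4.99 on the log2 scale with all libraries, 8.84 in the lower run and 3.99 in females.

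Other genes of the pathway moved in both directions. Of all tested genes 44% rose and 47.5% fell, which is the share to hold beside the counts of these and the other lists. Of 67 genes of chemokine receptor signalling 29 are listed, and 13 rose and 13 fell (median log2 fold change 0.23, against 0.22 over all genes tested). Vav1, an exchange factor of blood cells, rose (log2 fold change 1.79, SE 0.18, edgeR adjusted p = 3.78e-05), while Arrb1, an arrestin that ends receptor signals, and Rgs2, which shortens G protein signals, fell (-1.20 and -1.48 on the log2 scale). Of 40 genes that induce chemokine transcription or act in that response 19 are listed, and 13 rose and 4 fell (median 0.53). Zc3h12a, an RNase that degrades chemokine and cytokine messages, rose from 1065 ± 81.2 (SD, n = 3) to 6736 ± 1783 (SD, n = 4) normalised reads (log2 fold change 2.52, SE 0.21, edgeR adjusted p = 1.65e-05). Nfkbiz, a cofactor of NF-kappaB in the response to IL-17, rose from 1373 ± 307 (SD, n = 3) to 4272 ± 634 (SD, n = 4) normalised reads, and the transcription factor Cebpb rose by 1.21 on the log2 scale. The 4 that fell were the NF-kappaB inhibitors Nfkbia and Tnfaip3 (-0.79 and -1.30), and Traf6 and Ifngr1 (-0.74 and -0.66). Rela and Il1rl2 did not pass. These genes were named after their values were seen.

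Of 14 genes that process or present chemokines 7 are listed, 5 higher and 2 lower. Mmp9, a protease that cleaves several chemokines, fell from 569.8 ± 78 (SD, n = 3) to 135 ± 78.1 (SD, n = 4) normalised reads (log2 fold change -2.20, SE 0.38, edgeR adjusted p = 0.000653), Sdc4, a heparan sulfate proteoglycan, fell by 0.82 on the log2 scale, and Hs3st1, an enzyme of heparan sulfate, rose (1.59). Of 21 other attractants and attractant receptors 5 are listed and the 4 tested rose, among them Gpr183 (2.10), a receptor for oxysterols, Alox5ap (0.96), needed to make leukotrienes, and Ltb4r1 (0.59), a leukotriene receptor. Of 7 other chemokine genes 3 are listed, and Mif, a cytokine that can bind chemokine receptors, rose (0.49).

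The libraries held 9590718 to 12761458 reads in the listed genes, which is a part of each library and not its depth, and the authors' size factors ran from 0.888 to 1.247. Keratinocyte genes were abundant in every library, Krt14 at 116254 ± 16504 (SD, n = 3) normalised reads in controls and 348564 ± 43207 (SD, n = 4) in KA. Of 8 keratinocyte markers 5 are listed: Krt14, Krt5 and Krt1 rose, while Krt15, a keratin of basal and follicle stem cells, fell from 174948 ± 24167 (SD, n = 3) to 40039.7 ± 21878 (SD, n = 4). The desmosome gene Dsc3 fell too (-0.85 on the log2 scale). None of the 7 dermal fibroblast or 9 mast cell markers is listed, which in a table of selected genes gives no level for them. Of 6 endothelial markers 2 are listed and rose, Pecam1 from 14.5 ± 3.14 (SD, n = 3) to 42.5 ± 9.02 (SD, n = 4) normalised reads and Lyve1 from 2.12 ± 0.261 (SD, n = 3) to 21.1 ± 17.2 (SD, n = 4), with KA 3 at 1 count of Lyve1. Among the other lists, melanocytes had 1 of 5 genes listed (Dct, -0.93), muscle and fat 1 of 6 (Plin4, 2.05) and eosinophils 1 of 5, Siglecf, with 18, 6.19 and 9.62 normalised reads in controls and 0.989, 2.25, 4.18 and 1.04 in KA.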

How the data were processed

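RNA from epidermis of 7 mice was sequenced, and the deposited data used here are 1 table covering all libraries. According to the submitters' processing notes, fastp, STAR 2.6.1d, featureCounts 1.5.0-p3, DESeq2 1.40.2 and mm10 were used; the strand setting and annotation are not given in the sources used here. Per the file headers, the deposited table holds raw read counts per gene, normalised reads (a signal scale, the authors' counts divided by 1 size factor per library), the authors' mean signal, log2 fold change with its SE, test score, p-values before and after adjustment, and gene lengths. No column belonged to another sample (0 columns). All 29 members had the same symbol, start and end in GENCODE M21 (GRCm38).

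Groups were taken from sample titles. The test on counts was edgeR 4.0.16 (R 4.3.3): filterByExpr (6761 genes kept, 330 left out), TMM factors, glmQLFit and glmQLFTest with robust estimates (common biological coefficient of variation 0.193), and Benjamini-Hochberg adjustment over all genes tested at 0.05. Each SE was obtained by dividing the log2 fold change by the root of the F statistic. Means and SDs are of the authors' normalised reads. With the authors' size factors, log2 fold changes were higher by a median of 0.13. The filter can admit a gene through the group where it is high. For members with no library of a group above 3 counts, counting intervals (95%, exact binomial on summed counts) or a floor of 3 counts per library were used. On simulated data for this comparison the code recovered 200 of 200 genes changed 4-fold among 6552 genes, with 11 false calls.

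The members, roles, gene lists and tests were chosen with earlier results of these data known. The single results of 1 member are not reported here, although the counts over the family include it. The other members were named; from each list, up to 3 genes with the smallest p among those past the threshold were named, and other list genes were chosen after their values were seen. Alternatives were RLE factors, the authors' size factors, no filter, a filter at 10 counts on average, limma-voom (limma 3.58.1), DESeq2 1.42.0, sex and run of animal numbers as covariates, sample numbers as a block, females alone, adjustment over 19407 genes and each replicate left out. The lower run alone, samples 1 to 3 without a block and the ratio over the floor without each KA library were added after the data were seen. Within groups, libraries differed by more than counting noise (chi-square divided by its degrees of freedom, 20.7 to 111).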

Additional observations from a re-analysis of the deposited data

Results flagged for a closer look

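In the 4 KA libraries, 1 value stood far from the rest, by its gap to the nearest value over the whole range (95% limit of Dixon's test), in 1 of 28 members, where chance gives about 1.4 (1 in 20 groups). Ccl17 had a ratio of 0.844: KA 3 held 6 counts and the other KA libraries 29 to 35.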

How the results depend on the processing

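The counts of members that passed stayed within 1.5 times of 16 ligands and 12 receptors under all alternatives run. Leaving out 1 library gave 14 to 16 ligands and 11 to 13 receptors, and 5792 to 6132 of all listed genes against 6188. In all, 548 values of single members were recomputed under 20 alternatives: 539 kept their direction and their side of the threshold, 9 kept their direction and no longer passed, and 0 changed direction. These 9 values belong to Ccl17, Cxcl12 and Cxcr4, and the other 25 members passed wherever they were tested. Without KA 1, KA 2 or KA 4, Cxcl3 and Ccl8 had too few reads for the filter. Samples with the same number in both groups did not deviate together (correlations of -0.202, 0.148 and -0.0913 for numbers 1, 2 and 3). Samples with different numbers gave correlations from -0.211 to 0.204. With so few libraries, these values cannot exclude that the numbers pair the mice. With the numbers as a replicate block, which leaves out KA 4, 13 of 14 tested ligands, 12 of 12 receptors and 5730 of 6692 genes passed, against 14, 12 and 5992 for the same libraries without the block. The authors' size factors put 3547 genes higher and 3211 lower, against 2976 and 3212 with TMM factors, and changed no call among the members. The fitted fold of Cxcl3 depended on the tool, 5.98 on the log2 scale with limma-voom and 7.85 with DESeq2 against 8.44. Counts of at most 3 in the controls limit the folds of Cxcl2, Cxcl3 and Ccl8.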
